A study of Mus musculus with 6 samples.

Results

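The stathmins and the best known growth cone proteins were described as 1 group of 10 genes: Stmn1, Stmn2, Stmn3, Stmn4, Basp1, Gap43, Marcks, Marcksl1, Dpysl2 and Dpysl3. They were chosen by family name from the 45583 rows of the deposited count table, with the BPA contrast of these same libraries already known. Their BPA against vehicle values are therefore given as a description and serve as no independent test. Each of the 10 symbols had 1 row, and all 10 were among the 13741 genes tested.

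The study measured RNA in the brain cortex of fetal male mice after their dams received bisphenol A (BPA), a plasticizer with estrogen-like activity, or vehicle. Both groups were of the Cyp19-EGFP strain on an FVBN background, in which a bacterial artificial chromosome carries the full Cyp19a1 gene with EGFP inserted ahead of its start codon, and the labels give each fetus as WT and SRY +. Dams were injected subcutaneously daily from mid-gestation to the day before collection with BPA at 50 µg/kg or with vehicle (peanut oil), and cortex was collected at GD15.5 (GD, gestational day), with 3 libraries in each group. The labels name the fetus and not its dam, so fetuses may share a litter, and the spread between libraries is the only error measured.

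These proteins shape the tip of the growing axon. Stathmins bind free tubulin dimers and promote microtubule disassembly, and phosphorylation by neuronal kinases releases the tubulin. Gap43, Basp1, Marcks and Marcksl1 encode abundant proteins of the inner face of the membrane, which bind acidic phospholipids and calmodulin, are substrates of protein kinase C and organise cortical actin. The collapsin response mediator proteins (CRMPs), encoded by the Dpysl genes, bind tubulin and act downstream of semaphorin 3A. All are known for high expression in newborn neurons of the fetal cortex that are sending out axons.

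Libraries held 3444601 (BPA 3) to 7180835 (vehicle 2) counts, and the 10 genes together took 0.726% (BPA 1) to 0.879% (vehicle 3) of them. Levels are given as CPM, counts-per-million values on library sizes after TMM (trimmed mean of M-values) scaling. Markers of cortical excitatory neurons summed to 3002 to 3381 CPM and those of progenitors to 2342 to 2684 CPM over all 6 libraries. Vehicle 2 and BPA 2 stood apart with choroid plexus RNA. The summed CPM of the 6 choroid plexus markers was 222 and 351 there and 11.4 to 18.8 in the other 4 libraries. Most of this was Ttr, at 195 CPM in vehicle 2 and 308 CPM in BPA 2. Clic6 was also highest there (11.1 and 18.5 CPM), but Otx2 was higher in vehicle 1 (7.65 CPM) than in vehicle 2 (6.76 CPM). The log2 fold changes of the 10 genes without vehicle 2 and BPA 2 are given with the deviations by library below.

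Stmn1 was the member whose reads could not be assigned cleanly. Gm11223 (ENSMUSG00000046341.5), a processed pseudogene at chr4:69925630-69926079 on the minus strand (GRCm38), is 450 bases long and spans exactly the 450-base coding sequence of Stmn1, including 3 of its exon junctions. The 2 sequences differ at 1 base, the substitution A274G, in which Stmn1 has the first base and positions are counted from the first base of the coding sequence. The 60 bases around that position are printed 5′ to 3′ from the GENCODE M21 transcript sequences (GRCm38), with the differing base in capitals.
Stmn1: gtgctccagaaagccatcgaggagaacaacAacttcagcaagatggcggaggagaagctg
Gm11223: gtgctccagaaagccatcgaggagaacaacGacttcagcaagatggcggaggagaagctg
Of the 401 possible 50-base reads in this coding sequence, 351 (87.5%) read the same in both loci, and the longest identical stretch was 273 bases. Over the whole Stmn1 transcript set, 17.9% of 50-base words were shared with Gm11223. No other member shared more than 1.61% of its words with any gene, and Stmn3, Stmn4, Basp1, Gap43, Dpysl2 and Dpysl3 shared none.

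The pseudogene row held more counts than the Stmn1 row in all 6 libraries. Stmn1 (ENSMUSG00000028832.11, chr4:134468320-134473843, plus strand), the cytosolic stathmin of progenitors and neurons, had 815, 1176 and 775 counts in vehicle 1, 2 and 3 and 952, 1089 and 503 in BPA 1, 2 and 3. Gm11223 had 1495, 1554 and 1322 counts in the vehicle libraries and 1366, 1342 and 674 in the BPA libraries. The share of their summed counts that fell on Stmn1 ran from 35.3% to 43.1% with vehicle and from 41.1% to 44.8% with BPA. The shares overlapped between the groups, and vehicle 1 had the lowest.

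The direction of Stmn1 depended on this split. On its own row, Stmn1 was at 120, 166 and 153 CPM with vehicle and at 149.5, 177 and 147 CPM with BPA, and the groups overlapped. Its mean was 146 ± 23.6 CPM with vehicle and 158 ± 16.7 CPM with BPA (SD, n = 3 each), a log2 fold change of 0.11 (SE 0.123, 95% interval −0.15 to 0.37), and it was the 1 member with a positive value. Summed with Gm11223, the CPM was 340, 384 and 414 with vehicle and 364, 395 and 343 with BPA. The summed means were 379 ± 37.2 and 368 ± 26.0 CPM, and the log2 fold change became −0.04 (SE 0.0998). Gm11223 alone was at 219 to 261 CPM with vehicle and 197 to 218 CPM with BPA, with groups that did not overlap. Without vehicle 1, the Stmn1 row by itself also gave a negative value (−0.01). Whether the authors' counting kept reads with several alignments was not given in the sources used here.

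**Figure D1:**
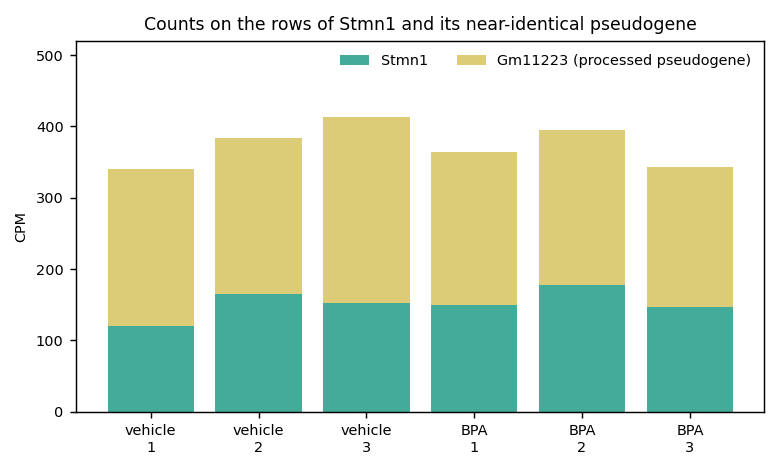
CPM on the Stmn1 row (lower part of each bar) and on the Gm11223 row (upper part) in each of the 6 libraries, with the bar height as their sum. The Stmn1 part is smallest in vehicle 1 (120 CPM) while the sums run from 340 to 414 CPM in both groups together.

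Among the neuronal stathmins, Stmn3 was lower in all BPA libraries and the others overlapped. Stmn3 (ENSMUSG00000027581.12, chr2:181306459-181314500, minus strand) encodes a membrane-anchored stathmin of neurons. It had 1716, 1974 and 1501 counts with vehicle and 1398, 1444 and 754 with BPA, which came to 252, 278 and 296 CPM and to 219.5, 235 and 219.98 CPM. Every BPA library lay below the lowest vehicle library. The means were 275 ± 21.9 and 225 ± 8.61 CPM (SD, n = 3 each), 18.3% less in BPA by the fit, with a log2 fold change of −0.29 (SE 0.0949, 95% interval −0.49 to −0.09). This was the most negative value among the 10 genes.

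Stmn2 (ENSMUSG00000027500.10, chr3:8509360-8561606, plus strand) encodes a stathmin held on vesicles and growth cone membrane by palmitoylation. Its levels were 697, 668 and 793 CPM with vehicle and 557, 714 and 708 CPM with BPA. BPA 1 lay below all others, and the other 2 BPA libraries lay within the vehicle range. Its log2 fold change was −0.12 (SE 0.110, 95% interval −0.36 to 0.11). Without BPA 1 it was −0.02, without vehicle 3 it was −0.05 and without BPA 2 it was −0.19.

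Stmn4 (ENSMUSG00000022044.14, chr14:66344296-66361680, plus strand), the remaining neuronal stathmin, was at 216, 249 and 269 CPM with vehicle and at 207, 269.6 and 230 CPM with BPA. The highest and the lowest of these values were both BPA libraries. The log2 fold change of −0.05 (SE 0.114, 95% interval −0.29 to 0.19) turned to 0.02 without vehicle 3 and to 0.03 without BPA 1, and was −0.17 without BPA 2.

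Of the GAP43-like pair, Basp1 was lower with BPA in every library and Gap43 was not. Basp1 (ENSMUSG00000045763.8, chr15:25363277-25413764, minus strand), a myristoylated phospholipid-binding protein of the growth cone, had 6688, 7999 and 5697 counts with vehicle and 5808, 5388 and 3232 with BPA. In CPM these were 984, 1126 and 1123 against 912, 876 and 943. The groups did not overlap, and vehicle 1 lay nearer to BPA 3 than to the other vehicle libraries. The means were 1078 ± 81.5 and 910 ± 33.7 CPM (SD, n = 3 each), 15.6% less in BPA by the fit, with a log2 fold change of −0.24 (SE 0.0926, 95% interval −0.44 to −0.05).

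Gap43 (ENSMUSG00000047261.9, chr16:42248442-42340651, minus strand), the classical marker of growing axons, was at 364, 382 and 424 CPM with vehicle and at 338, 408 and 367 CPM with BPA. The groups overlapped, with BPA 1 lowest and vehicle 3 highest. The log2 fold change was −0.07 (SE 0.1003, 95% interval −0.28 to 0.14), and it was −0.0073 without BPA 1, −0.0091 without vehicle 3, −0.12 without vehicle 1 and −0.15 without BPA 2. Summed over Gap43 and Basp1, the mean was 1468 ± 106 CPM with vehicle and 1281 ± 30.2 CPM with BPA, a ratio of 0.873. The same ratio was 0.922 for the 4 stathmins, 0.932 for the MARCKS genes, 0.959 for the CRMP genes and 0.932 for all 10 together.

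Promoter sequences from RefSeq, 250 bases before to 50 after the gene start on GRCm38.p6, were on hand for 3 of the 10 genes (Stmn3, Basp1 and Marcksl1). Those of Stmn3 and Basp1 are printed 5′ to 3′ because these were the 2 members whose groups did not overlap. Capitals mark GGGCGG, the GC box, where it occurs on either strand.
Stmn3 promoter (chr2:181314451-181314750, minus strand): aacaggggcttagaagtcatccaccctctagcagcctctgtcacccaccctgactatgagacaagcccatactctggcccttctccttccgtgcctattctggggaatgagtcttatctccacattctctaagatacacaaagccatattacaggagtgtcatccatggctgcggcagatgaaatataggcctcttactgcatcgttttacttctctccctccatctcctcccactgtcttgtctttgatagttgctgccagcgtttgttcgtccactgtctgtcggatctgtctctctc
Basp1 promoter (chr15:25413715-25414014, minus strand): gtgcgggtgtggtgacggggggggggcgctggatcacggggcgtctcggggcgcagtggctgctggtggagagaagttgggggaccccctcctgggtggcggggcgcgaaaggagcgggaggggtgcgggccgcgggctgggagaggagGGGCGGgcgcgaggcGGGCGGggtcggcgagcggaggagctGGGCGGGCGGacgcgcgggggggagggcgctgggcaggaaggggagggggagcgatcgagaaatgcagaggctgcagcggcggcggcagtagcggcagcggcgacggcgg
The windows had little in common. The Basp1 window was 78.0% G and C with 38 CpG dinucleotides and 4 GC boxes, of which the last 2 overlap, while the Stmn3 window was 49.7% G and C with 6 CpG dinucleotides and no GC box. Over all 27025 promoters the median was 52.7% G and C and 7 CpG dinucleotides, and 35.9% held GGGCGG. Neither window held TATAAA (14.2% of all promoters), CCAAT (37.9%), CAGCTG (16.1%) or the full palindromic estrogen response element (0.0666%), with both strands searched. The Marcksl1 window (chr4:129513331-129513630, plus strand) was 63.7% G and C and held GGGCGG at 2 positions and CCAAT at 1. The absence of a match says only that these letters were not in the window.

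The MARCKS genes overlapped between groups. Marcks (ENSMUSG00000069662.5, chr10:37133375-37138920, minus strand), which encodes an actin cross-linking substrate of protein kinase C, was at 1107, 1116 and 980.3 CPM with vehicle and at 932, 1073 and 955 CPM with BPA. BPA 1 and BPA 3 were the lowest libraries, and BPA 2 lay above vehicle 3. This gave a log2 fold change of −0.11 (SE 0.0960, 95% interval −0.32 to 0.09), and it was −0.18 without BPA 2, −0.07 without BPA 1 and −0.17 without vehicle 3. Marcksl1 (ENSMUSG00000047945.6, chr4:129513581-129515985, plus strand), its smaller homologue, was at 889, 852 and 889.6 CPM with vehicle and at 724, 921 and 829 CPM with BPA. The vehicle libraries were close together (877 ± 21.6 CPM, SD, n = 3), whereas the BPA libraries held both the lowest and the highest value (825 ± 98.6 CPM). The log2 fold change was −0.09 (SE 0.0997, 95% interval −0.30 to 0.12), and it was −0.0022 without BPA 1 and −0.18 without BPA 2.

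The CRMP genes held the most abundant and the most even members. Dpysl3 (ENSMUSG00000024501.20, chr18:43320984-43438286, minus strand), the sixth highest gene of the table by mean CPM, was at 3142, 2620.4 and 3077 CPM with vehicle and at 2619.9, 2665 and 3172 CPM with BPA. Vehicle 2, BPA 1 and BPA 2 formed the low end and the other 3 libraries the high end, so the levels did not follow the groups. Its log2 fold change was −0.06 (SE 0.106, 95% interval −0.29 to 0.16). Near 0 without BPA 1 (−0.015), vehicle 1 (−0.016), BPA 2 (−0.03) or vehicle 3 (−0.03), it was −0.14 without vehicle 2 and −0.16 without BPA 3. Dpysl2 (ENSMUSG00000022048.8, chr14:66802864-66868688, minus strand), which encodes the CRMP studied for axon specification, was at 685, 680.2 and 718 CPM with vehicle and at 669.9, 664 and 690.3 CPM with BPA. Its highest library was 1.08 times its lowest, the narrowest range of the 10 genes, and its log2 fold change was −0.04 (SE 0.0864, 95% interval −0.23 to 0.14), which without vehicle 3 was −0.02.

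**Figure D2:**
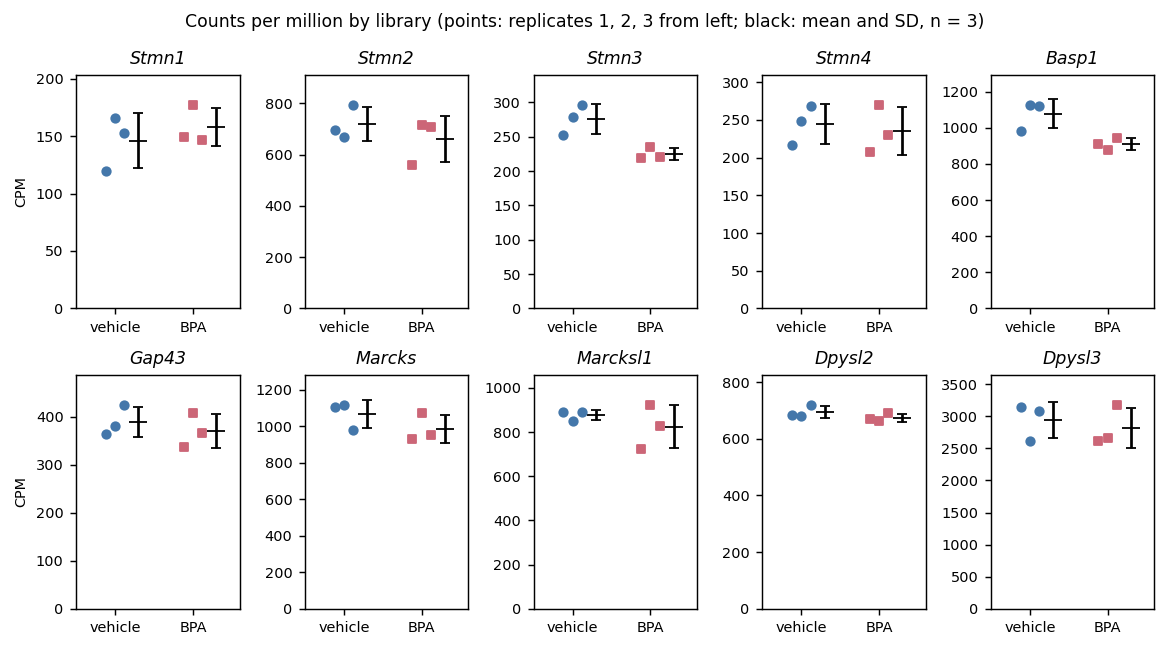
CPM of each of the 10 genes in the 3 vehicle libraries (circles) and the 3 BPA libraries (squares), in replicate order from the left, with the mean and SD of each group in black and each axis starting at 0. The groups do not overlap for Stmn3 and Basp1, and overlap for the other 8 genes.

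The genes differed far more from each other than between groups. Per kilobase of exonic length, which allows genes to be compared, Marcksl1 was highest at 530 ± 43.5 CPM per kb (SD over the 6 libraries) and the Stmn1 row lowest at 79.0 ± 10.1 CPM per kb. Between them came Basp1 at 495 ± 53.4, Dpysl3 at 436 ± 41.4, Marcks at 254 ± 20.0, Gap43 at 249.8 ± 20.7, Stmn3 at 220.1 ± 27.7, Dpysl2 at 151 ± 4.24, Stmn4 at 125 ± 13.9 and Stmn2 at 123 ± 13.7 CPM per kb. Over the 6 libraries, the ranges of neighbours in this order did not meet at 4 steps and overlapped at the other 5. The 4 were Dpysl3 to Marcks, Stmn3 to Dpysl2, Dpysl2 to Stmn4 and Stmn2 to Stmn1. Within each library Gap43 also lay above Stmn3, although their ranges overlapped. Marcksl1 ranked 14th and the Stmn1 row ranked 377th of the 13150 tested genes with a length. Lengths cover all annotated exons of a gene, so a gene that mostly uses a short isoform reads low on this scale. With the counts on Gm11223 added, Stmn1 stood at 194 ± 15.3 CPM per kb (range 177 to 215), above Dpysl2, Stmn4 and Stmn2 in every library, so its last place depends on how reads were assigned.

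Shares of the group's own summed counts do not depend on library scaling. Dpysl3 alone took 32.2% to 38.4% of them, Basp1 10.9% to 13.8%, Marcks 11.2% to 13.7% and Marcksl1 9.88% to 11.5%. The Stmn1 row took 1.42% to 2.21%, the least of the 10 rows, but with the Gm11223 counts added Stmn1 took 3.92% to 4.83%, above Stmn3 and Stmn4 in every library. The vehicle and BPA libraries overlapped for all 10 shares, Stmn3 (2.98% to 3.42% with vehicle, 2.66% to 2.996% with BPA) and Basp1 (11.6% to 13.8% and 10.9% to 12.4%) included. No gene of the group took a share that separated the treatments.

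Set beside all genes, the 10 members read as follows. None passed an adjusted p of 0.1 by edgeR's quasi-likelihood test with Benjamini-Hochberg adjustment over all 13741 genes, and neither did any other gene (0%), with an adjusted p of 0.9998 for each of the 10. An unadjusted p under 0.05 was reached by 2 of 10 (Stmn3 and Basp1, both lower with BPA), against 2.20% of all genes in either direction and 1.18% lower with BPA. Groups did not overlap for the same 2 genes, against 6.75% of all genes in either direction and 3.56% lower with BPA. The log2 fold change was below 0 for 9 of 10, against 49.5% of all genes, and the median was −0.08 against 0.0016 over all genes and −0.0055 over the 2712 genes averaging at least 100 CPM. Since the members were chosen with this contrast already known, nothing is read from these counts.

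**Figure D3:**
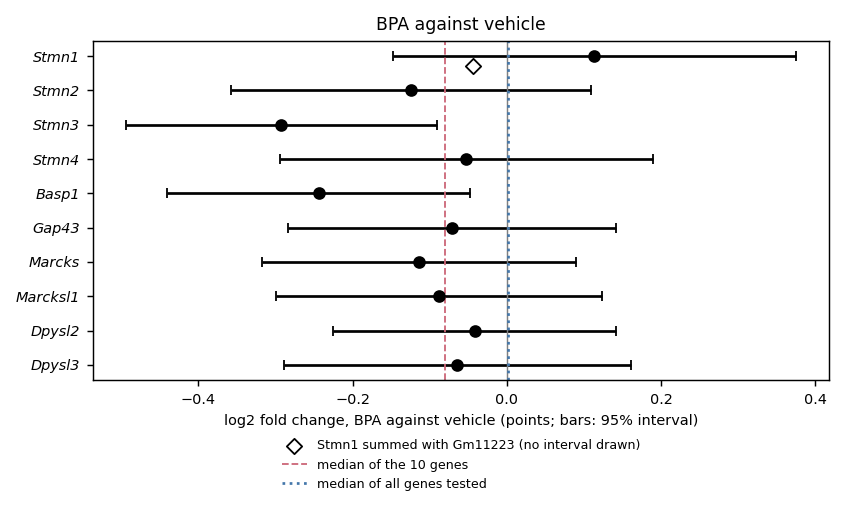
Log2 fold change of BPA against vehicle for the 10 genes (points) with 95% intervals from edgeR (bars). The dashed line is their median (−0.08), the dotted line that of all genes tested (0.0016), and the open diamond is Stmn1 summed with Gm11223 (−0.04). The intervals of Stmn3 and Basp1 lie below 0 and the other 8 include 0.

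Member counts ran from 503 to 21366 per library, which sets a counting error of 0.959% to 4.46% in the shallowest library of each gene. The spread within groups was 2.06% to 16.1% (coefficient of variation). Standard errors of the log2 fold changes were 0.0864 to 0.123, against a median of 0.147 over all genes. The 95% interval of every member except Stmn3 and Basp1 included 0. A change of the size seen for Stmn3 (−0.29) lay inside the interval of Basp1, Stmn2, Stmn4, Marcks and Marcksl1.

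The 10 genes deviated to the same side in BPA 1 and nearly so in vehicle 3, and to both sides in the other 4 libraries. All 10 were below their own 6-library mean in BPA 1, and 9 of 10 were above it in vehicle 3. In BPA 3, 7 were below, in vehicle 1 and BPA 2, 4 were below, and in vehicle 2, 3 were below. The mean deviation over the 10 genes was −0.15 (log2) in BPA 1, −0.03 in BPA 3, −0.02 in vehicle 1, 0.03 in BPA 2, 0.05 in vehicle 2 and 0.12 in vehicle 3. BPA 2 was thus within the vehicle range and vehicle 1 close to BPA 3. Without BPA 1 the median log2 fold change of the 10 genes was −0.02, without vehicle 3 it was −0.04, and without BPA 2 it was −0.17. With both libraries that held choroid plexus RNA left out it was −0.15, with 9 of 10 lower. In that fit the log2 fold changes were 0.13 for Stmn1, −0.23 for Stmn2, −0.31 for Stmn3, −0.14 for Stmn4 and −0.18 for Basp1. They were −0.16 for Gap43, −0.14 for Marcks, −0.19 for Marcksl1, −0.04 for Dpysl2 and −0.10 for Dpysl3.

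**Figure D4:**
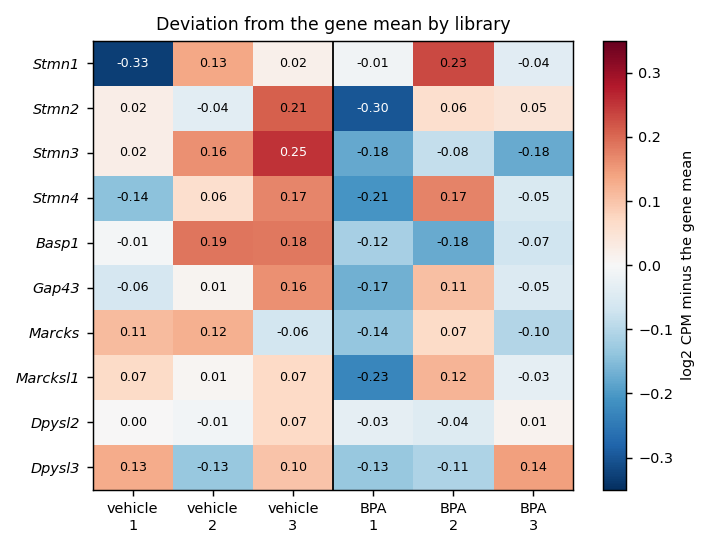
Log2 CPM of each gene (rows) minus its mean over the 6 libraries (columns), with red above and blue below the mean. The BPA 1 column is below 0 for all 10 genes, vehicle 3 is above 0 for 9, and vehicle 1 and BPA 2 hold both signs.

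The genes with the most similar pattern over the 6 libraries were chosen from 10000 tested genes that averaged at least 10 CPM. For Stmn3 these were Mrps30 (Pearson r of log2 CPM 0.993), Pld3 (0.988) and Scap (0.983). For the mean profile of the 10 genes they were Calm3 (0.993), St6gal1 (0.991) and Alg11 (0.984). All 6 were lowest in BPA 1 and highest in vehicle 3. With 6 points that share libraries, depth and scaling, and with so many candidates, correlations of this size are a description only. Calm3 encodes a calmodulin, the calcium sensor that binds Gap43 and Marcks, and was at 843 ± 48.5 CPM with vehicle and 767 ± 53.1 CPM with BPA (SD, n = 3 each), with overlapping groups and a log2 fold change of −0.14 (SE 0.0933).

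The partners of these proteins were read from 5 lists, written with earlier results of these data known, and no gene of any list passed the adjusted threshold. The other CRMP genes were level, with 3 of 3 below 0 and a median of −0.0029. Crmp1, the highest of them, was at 1996 ± 98.4 CPM with vehicle and 1926 ± 87.2 CPM with BPA (log2 fold change −0.05, SE 0.0905). Kinases, phosphatases and calmodulins that act on the members were below 0 for 14 of 18 (49.5% of all genes were), with a median of −0.05. None of the 18 had an unadjusted p under 0.05 by edgeR's quasi-likelihood test, and the groups overlapped for each. The smallest p of that list belonged to Mapk10, a neuronal JNK that phosphorylates stathmins, at 139.5 ± 12.02 and 124 ± 14.8 CPM (−0.17, SE 0.111).

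Tubulins, the binding partners of stathmins and CRMPs, were below 0 for 9 of 11, with a median of −0.08, and 1 of 11 had an unadjusted p under 0.05, against 49.5% of all genes below 0 and 2.20% at that p. That gene, Tuba1a, the main alpha-tubulin of newborn neurons, was at 2722 ± 308 CPM with vehicle and 2327 ± 92.0 CPM with BPA (log2 fold change −0.23, SE 0.0999), and its groups did not overlap. Tubb5, the most abundant tubulin, was at 4222 ± 277 and 4028 ± 218 CPM (−0.07). Tubulin genes are close paralogs, so short reads may be split among them.

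Regulators of the growth cone cytoskeleton were below 0 for 14 of 23 (49.5% of all genes were), with a median of −0.04. Growth cone membrane proteins were below 0 for 3 of 8, with a median of 0.03. Map1b, the microtubule-associated protein with the highest level of the former, was at 3759.5 ± 413 and 3771 ± 447 CPM, and Vasp, an actin elongation factor with the smallest p there, at 51.9 ± 6.66 and 44.1 ± 5.76 CPM (−0.23, SE 0.132). In the latter, Cntn2, an axonal adhesion molecule, was at 1463 ± 57.6 and 1564 ± 159 CPM (0.10), and Rufy3, an adaptor of axon formation, at 398 ± 23.7 and 369 ± 21.3 CPM (−0.11). The groups overlapped for every gene of these 2 lists.

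In bulk cortex, fewer cells of a type and less RNA per cell cannot be told apart. Markers of postmitotic neurons, which express all 10 genes, summed to 2375 to 2475 CPM with vehicle and 2208 to 2336 CPM with BPA. These sums did not overlap, and 8 of 8 were below 0 (49.5% of all genes were), with a median of −0.09. Gene by gene, the groups did not overlap for 1 of 8, Elavl3 (3.56% of all genes did so lower with BPA). Elavl3 was the most abundant of the 8, at 942 to 986 CPM with vehicle and 857 to 925 CPM with BPA. The separation of the sums depended on this gene. None of the 8 had an unadjusted p under 0.05 or an adjusted p under 0.1 by edgeR's quasi-likelihood test. Markers of cortical excitatory neurons were below 0 for 2 of 7, with a median of 0.08, and their sums overlapped at 3002 to 3381 and 3187 to 3316 CPM. Progenitor markers were below 0 for 6 of 12, with a median of 0.0093 and overlapping sums of 2423 to 2668 and 2342 to 2684 CPM.

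Markers of the ventral telencephalon, the source of migrating interneurons, were below 0 for 10 of 10 (49.5% of all genes were), with a median of −0.25. An unadjusted p under 0.05 by edgeR's quasi-likelihood test was reached by 6 of 10 (1.18% of all genes did so lower with BPA). Groups did not overlap for 8 of 10 (3.56% of all genes did so lower with BPA), while none passed the adjusted threshold. The list holds Nkx2-1, which had the smallest adjusted p of all genes tested (0.25, edgeR's quasi-likelihood test). All marker lists were written with earlier results of these data known, so nothing is read from these counts. The ventral markers summed to 1034 to 1192 CPM with vehicle and 902 to 989 CPM with BPA. This sum did not overlap between the groups, as was so for only Stmn3 and Basp1 among the 10 growth cone genes. The part of this list in the values of Stmn3 and Basp1 was not tested. Of the remaining lists, blood markers summed to 283 to 597 and 332 to 413 CPM, vessel and meningeal markers to 215 to 275 and 209 to 252 CPM, and microglia markers to 47.0 to 58.4 and 50.6 to 58.0 CPM. These 3 overlapped between groups, as did the choroid plexus markers, and their part was not tested.

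**Figure D5:**
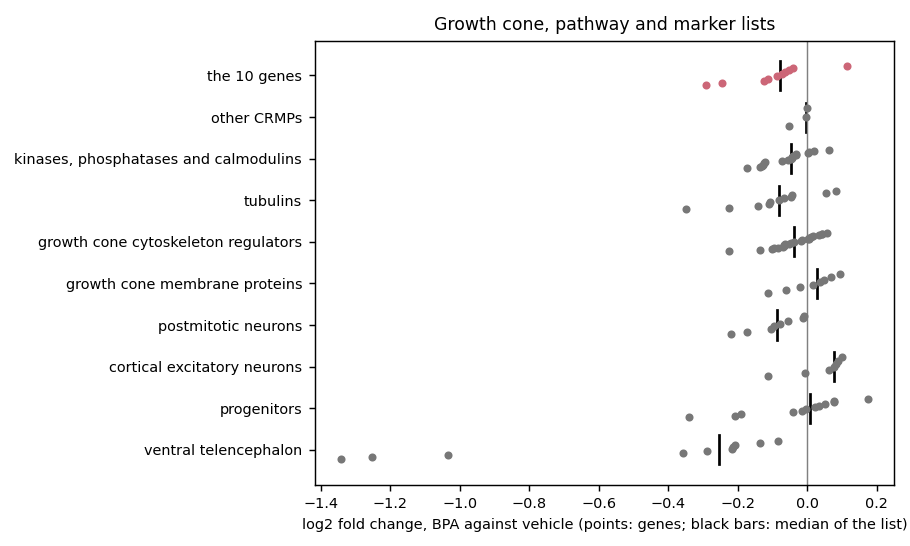
Log2 fold change of BPA against vehicle for each gene (points) of the 10-gene group, the 5 lists of partners and 4 lists of cell markers, with the median of each list as a black bar. The group's median is −0.08, near those of tubulins (−0.08) and postmitotic neuron markers (−0.09), while cortical excitatory neuron markers lie at 0.08 and ventral telencephalon markers at −0.25.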

How the data were processed

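The authors deposited read counts per gene for 6 libraries. Per the labels and methods, libraries from total RNA were strand-specific and read single-end for 50 bases, and reads were aligned with TopHat2 (2.0.14 in the submitters' processing notes) to GRCm38 and counted with featureCounts on GENCODE models. Strand and multi-mapping options were not given in the sources used here. Groups came from the labels, which give GD15.5, as do the methods, while the study's results text gives a later age. Replicates were numbered in accession order.

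The table held 45583 rows, of which 23501 had any count. Symbols were matched to GENCODE M21 (GRCm38) for 13150 (95.7%) of the genes tested. In R 4.3.3, edgeR 4.0.16 kept 13741 genes (filterByExpr, minimum count 10, minimum total 15; 99.7% of counts), scaled by TMM (trimmed mean of M-values) and fitted the quasi-likelihood model with treatment as its single term. An adjusted p (Benjamini-Hochberg) under 0.1 was the threshold, as in the methods of the study. CPM used TMM-scaled library sizes, and log2 CPM a prior count of 2. Standard errors were computed from the quasi-likelihood F and the log2 fold change. Words of 50 bases were compared across all GENCODE transcripts. Tested on simulated data with 2-fold changes in 200 of 13741 genes, the fit recovered 168 (84.0%). The largest difference of a member was 18.3% (Stmn3), so this recovery does not apply to changes of the members' size. Counts were simulated independently for each gene, without shifts shared by the genes of a library.

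The members and all gene lists were chosen with earlier results of these data known. By rule, the text names all members, the 3 most similar genes, the gene with the smallest p and the most abundant gene of each partner list, and genes sharing at least 5% of a member's words. Alternatives were DESeq2 1.42.0, limma-voom (limma 3.58.1), edgeR's exact test, other scalings and filters, omission of each library, and summing Stmn1 with Gm11223. Omitting both libraries with choroid plexus RNA, and the summing for anything other than the members' own fold changes, were chosen after seeing the data.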

Additional observations from a re-analysis of the deposited data

How the results depend on the processing

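Over 16 alternative settings, 147 of 151 alternative values of the 10 log2 fold changes kept their direction and their side of the adjusted threshold of 0.1, which no member passed under any setting (smallest adjusted p 0.581, Stmn3, with vehicle 2 and BPA 2 left out, by edgeR). The 4 that reversed were Stmn1 at −0.012 without vehicle 1 and −0.043 when summed with Gm11223, and Stmn4 at 0.017 without vehicle 3 and 0.034 without BPA 1. Other tools, scalings and filters moved no member by more than 0.010. Leaving out 1 library at a time, the members' median ran from −0.17 (without BPA 2) to −0.015 (without BPA 1), the number lower with BPA from 8 to 10, Stmn1 from −0.012 to 0.22 (without vehicle 2), Stmn3 from −0.35 to −0.24 and Basp1 from −0.31 to −0.21. An unadjusted p under 0.05 was reached by Stmn3 alone without vehicle 2, without BPA 2 or without both, and by no member without vehicle 3. Over all genes, edgeR's quasi-likelihood test called 0 at the adjusted threshold (302 at an unadjusted p under 0.05), limma-voom 0, DESeq2 3, the exact test 2, the fit with no filter 19 of 23501, and the fit without vehicle 2 and BPA 2, chosen after seeing the data, 15. Leaving out 1 library gave 0 to 1. The cause was not tested. No paired analysis was possible because the labels carry no replicate numbers that link fetuses across the groups. Depth sets a counting error of at most 4.46% for any member, and the spread within groups was 2.06% to 16.1%.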
